A study of Rattus norvegicus with 16 samples.

Results

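Transcripts of 7 membrane carriers were followed in the liver of young rats whose mothers had received mixtures of environmental contaminants. The carriers are 6 members of the Slc16 family (Slc16a11, Slc16a13, Slc16a1, Slc16a7, Slc16a10 and Slc16a12) and the phosphate carrier Slc34a2, and probes were matched to them by RefSeq transcript or gene name. The set was selected on values of these same arrays: Slc16a11 and Slc34a2 were chosen by their adjusted p and lower level at the higher dose of the contaminant mixture. The other 5 are relatives of Slc16a11. Of the 7 genes, 6 had a matched probe, 1 probe each, among 30367 probes on the array. Slc16a12 had none and is not analysed here. All 6 passed the filter on dim probes and so belong to the 13146 transcripts tested.

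The arrays held liver RNA of male Sprague-Dawley pups at 21 days of age that stayed with their birth mothers. Dams were dosed from gestation day 0 to postnatal day 20, always in corn oil. AhR dams were given agonists of the aryl hydrocarbon receptor (non-ortho PCBs, dioxins and furans) at 1.8 ng/kg/day in TCDD toxic equivalents. The remaining groups form a dose series of organochlorine pesticides, polychlorinated biphenyls and methylmercury: C (corn oil only), 0.5M (0.5 mg/kg/day) and M (1.0 mg/kg/day). Each of the 4 groups had 4 arrays, and each array held RNA pooled from 2 pups, so a value is a mean over a pair of animals. Slide 1 carried replicates 1 and 2 of every group, and slide 2 carried replicates 3 and 4. Litters are not given in the labels, so p-values measure the spread between these pooled samples, which would understate the error if littermates were spread over arrays. Every value is a log2 ratio of liver RNA (Cy5) to a reference RNA from 14 rat cell lines (Cy3), so levels can be compared between arrays for a gene but not between genes.

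Slc16 proteins, also called monocarboxylate transporters, move small acids across the plasma membrane. The best known members couple lactate, pyruvate and ketone bodies to protons and need a partner protein such as basigin to reach the cell surface, while others carry thyroid hormone, aromatic amino acids or creatine. The liver takes up lactate and pyruvate for gluconeogenesis and exports ketone bodies. Slc34a2 is not related to them by function. It moves phosphate together with sodium and is best known from the apical membrane of the small intestine, of lung type 2 cells and of bile duct epithelium.

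The scanner software found 7082 to 13824 probes of an array well above background in Cy5 on slide 1 and 13006 to 15686 on slide 2. The hepatocyte markers, 7 of 7, were well above background on all 16 arrays. Skeletal muscle markers were high on M 2 (mean log2 ratio 3.12) and 0.5M 4 (3.58), against -2.40 to -0.91 on the other arrays, and exocrine pancreas markers on M 1 (1.70) and AhR 2 (0.88). Fat markers were highest on C 2 (0.50). Stellate cell markers were high on the same arrays as the muscle markers, M 2 (1.75) and 0.5M 4 (1.44), against 0.20 to 0.48 elsewhere. In M against C the median log2 difference was 1.28 for 7 muscle, 0.49 for 3 pancreas and 0.48 for 6 stellate cell markers, none of which passed the threshold, and their part in the carrier values was not tested. The median was -0.14 for 7 hepatocyte, -0.17 for 3 fat and 0.07 for 7 Kupffer cell markers. None of these passed either, and their part was not tested. The receptor target Cyp1a1 was higher in all exposed groups than in C, by a log2 of 2.46 ± 0.18 in AhR, 3.74 ± 0.18 in 0.5M and 4.58 ± 0.18 in M (SE, n = 4 arrays per group). Cyp2b2, named beside it in the plan, differed from C by 3.16 ± 0.22 in M and 1.87 ± 0.22 in 0.5M. In AhR its difference was 0.26 ± 0.22 and did not pass the threshold.

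Slc16a11 had the widest range of the 6 probes across the 16 arrays, and its levels in the dose series were ordered by dose. The protein lies in the plasma membrane and endoplasmic reticulum and has been described in human cells as a proton-coupled pyruvate carrier. Its log2 ratios were -0.09, 0.26, 0.44 and 0.34 in M, against 0.79, 0.65, 1.15 and 1.01 in C. All 4 M arrays lay below the lowest C array. The 0.5M arrays read 0.37, 0.62, 0.47 and 0.56, below every C array as well, and the AhR arrays 0.73, 0.78, 0.78 and 0.80, within the range of C. Along the doses the mean was 0.90 ± 0.22 in C, 0.51 ± 0.11 in 0.5M and 0.24 ± 0.23 in M (SD, n = 4 arrays each). M and 0.5M overlapped, as M 3 lay above 0.5M 1. The AhR mean was 0.77 ± 0.03, which places AhR between 0.5M and C.

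**Figure D1:**
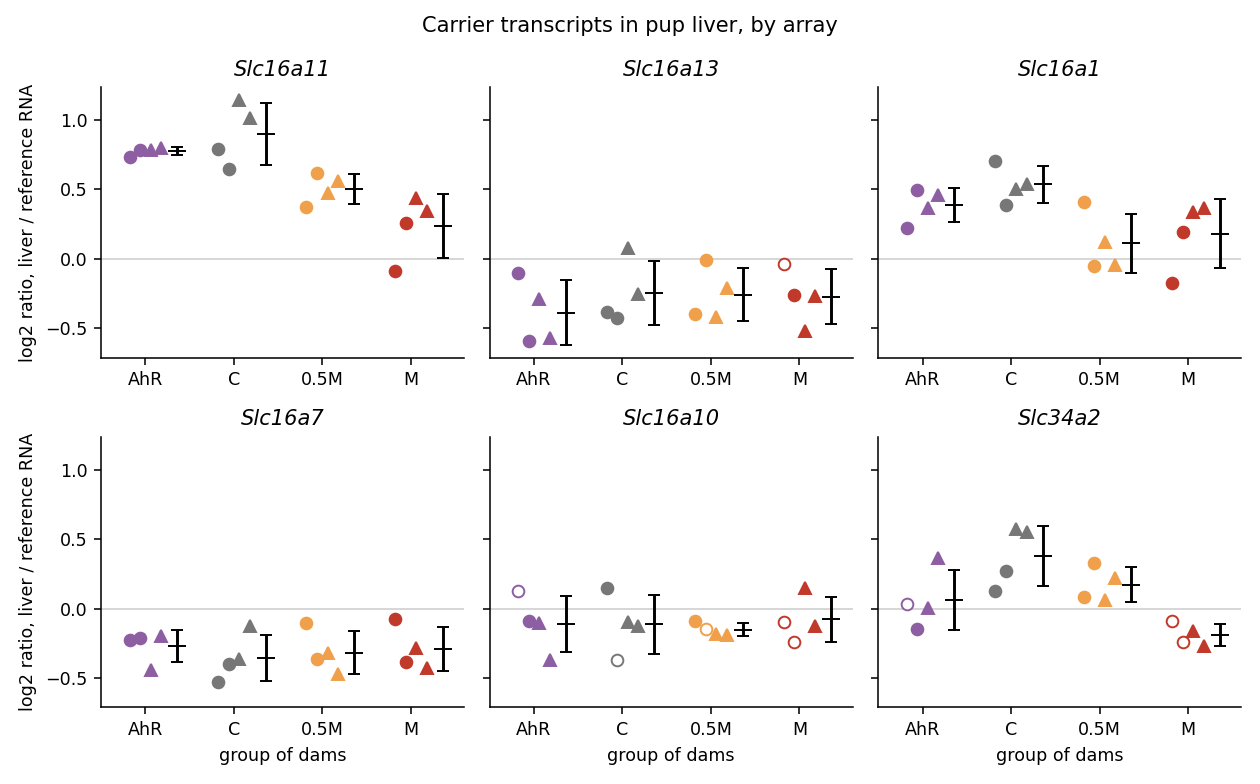
Log2 ratio of liver to reference RNA for the 6 carriers with a probe, by group (horizontal axis), with 1 point per array. Circles lie on slide 1 and triangles on slide 2, open symbols were not well above background in the liver channel, and bars give the mean ± SD of 4 arrays. Slc16a11 runs from 0.90 in C through 0.51 in 0.5M to 0.24 in M, and the M arrays of Slc34a2 all lie below 0, while the group means of Slc16a13, Slc16a7 and Slc16a10 lie close together beside the spread of their arrays.

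The difference of Slc16a11 between M and C was -0.66 ± 0.10 on the log2 scale (SE, n = 4 arrays per group), a level 36.8% lower. With that of Slc34a2, this is the value that chose the set, and its adjusted p of 0.00673 (limma, Benjamini-Hochberg) is given as the choosing value and not as a test. In M against C, 42 of 13146 transcripts passed, 0.319%, and 8 of them, 0.0609%, were lower in M; 2 of the 6 carriers were among these by the way they were chosen. Of the 4 named transcripts lower in M that passed, the 2 with the highest adjusted p were A2m (-1.04 ± 0.16, adjusted p = 0.00721) and Slc34a2 (-0.57 ± 0.11, adjusted p = 0.0402). The nearest outside the threshold were Nampt (-0.46 ± 0.09, adjusted p = 0.054) and Thtpa (-0.36 ± 0.08, adjusted p = 0.062). Within slide 1 the Slc16a11 difference was -0.63 and within slide 2 -0.69. The liver channel alone differed by -0.80 and the reference channel by -0.14. The reference was thus also lower in M, which makes the ratio difference smaller than that of the liver signal.

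For Slc16a11, the comparisons that use M or C are descriptions too, since these arrays chose it. The difference was -0.39 ± 0.10 in 0.5M against C (23.9% lower), -0.12 ± 0.10 in AhR against C and -0.27 ± 0.10 in M against 0.5M. M lay 0.54 ± 0.10 below AhR, with all 4 M arrays under the lowest AhR array (adjusted p = 0.0366, as a description). The comparison of 0.5M with AhR takes its difference from neither M nor C arrays and was tested. Its SE, interval and p still use the spread over all 16 arrays, M and C among them. They are thus not fully apart from the choice. All 4 0.5M arrays lay below all 4 AhR arrays, with a difference of -0.27 ± 0.10 (95% interval -0.48 to -0.06), yet the adjusted p was 0.469 (limma, Benjamini-Hochberg over 13146 transcripts). In that comparison 5.01% of all transcripts had groups that did not overlap and 0.0228% passed the threshold.

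The uncorrected scans show how bright the Slc16a11 probe was. Its Cy5 intensity was 134.5, 408, 1197 and 590 in M 1 to M 4, against 426.5, 764, 2573 and 1224 in C 1 to C 4, over a local background of 62.3 to 71.0 on the 16 arrays. These intensities also carry the overall brightness of each array, which the ratio removes. The probe was well above background on all 16 arrays. M 1 was the dimmest array for this probe, was the lowest in ratio and also carried the pancreas transcripts, whose part in the value was not tested. Without M 1 the M against C difference was -0.57 ± 0.10, and without the 5 arrays that held muscle, pancreas or fat transcripts it was -0.63 ± 0.12, with an adjusted p of 0.062 that no longer passes the threshold.

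**Figure D2:**
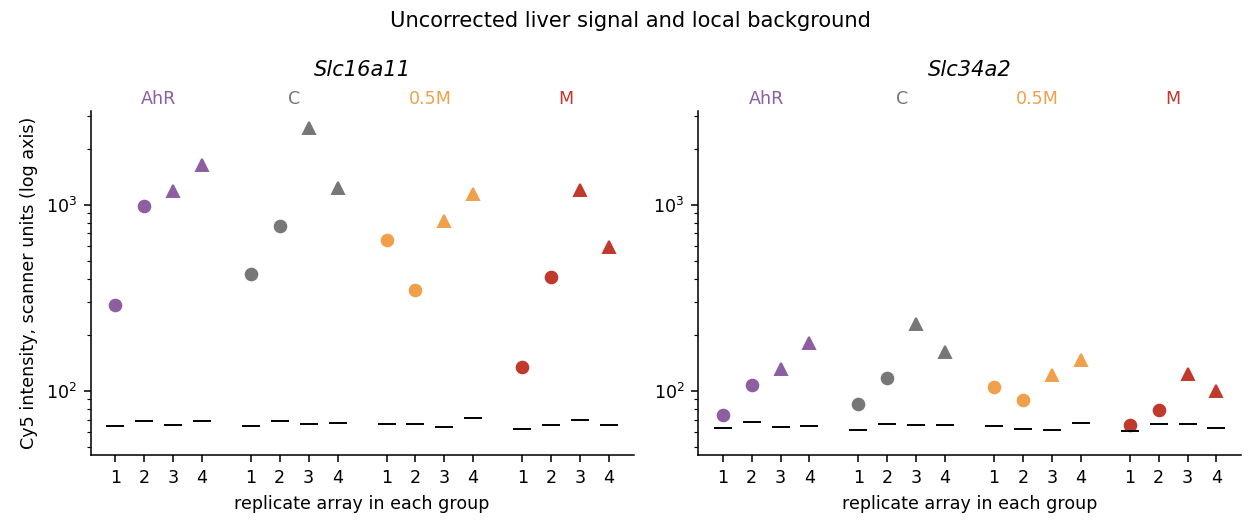
Uncorrected Cy5 intensity in scanner units (log axis) of Slc16a11 and Slc34a2 on each array, with the local background as a black dash. Circles lie on slide 1 and triangles on slide 2. Slc16a11 stands above its background on every array, while Slc34a2 in M 1 reads 65.5 over a background of 61.0.

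Slc16a13, described as a lactate carrier, is encoded next to Slc16a11, and in RefSeq's GRCr8 annotation the span of Slc16a13 takes in that of Slc16a11. Its log2 ratios were -0.04, -0.26, -0.52 and -0.27 in M, against -0.38, -0.43, 0.08 and -0.25 in C. The groups overlapped broadly. The difference was -0.03 ± 0.14, with opposite signs on the slides (0.25 on slide 1 and -0.31 on slide 2). No other comparison of Slc16a13 passed, and its differences from C were -0.01 ± 0.14 in 0.5M (95% interval -0.31 to 0.29) and -0.14 ± 0.14 in AhR (-0.45 to 0.16). Over the 16 arrays, with slide means removed, the log2 ratios of Slc16a11 and Slc16a13 had a correlation of 0.02, given as a description of arrays that share a slide and a reference.

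The wider neighbourhood of Slc16a11 was read out from the 10 annotated genes on either side. Leaving Slc16a13 aside, 19 genes were listed, 11 had a probe and 7 were tested, and none passed in any of the 6 comparisons. In M against C, the comparison with the most calls, 0.319% of all transcripts passed. In M against C 7 of 7 were lower (median -0.13, range -0.45 to -0.03), beside 50.6% of all transcripts. In 0.5M against C 7 of 7 were lower as well (median -0.20), beside 51.2% of all transcripts. Acadvl, which encodes the dehydrogenase for very long acyl chains in mitochondrial fat oxidation, had the smallest adjusted p in M against C (-0.34 ± 0.08, adjusted p = 0.099). Alox15, a lipoxygenase gene, had the largest difference (-0.45 ± 0.29, adjusted p = 0.659). The liver lectin genes Asgr1 and Asgr2 differed by -0.03 ± 0.10 and -0.15 ± 0.12. In AhR against C 3 were higher and 4 lower. The M and 0.5M comparisons share the C arrays.

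A stretch of 250 bases before and 50 bases after the annotated start is shown for Slc16a11, Slc16a1 and Slc34a2, the carriers with all M arrays below all C arrays, because the AhR dams received agonists of a receptor that binds DNA. The sequences are RefSeq's (GRCr8), 5′ to 3′ on the strand of the gene, at chr10:55427705-55428004 (plus strand), chr2:194812410-194812709 (plus strand) and chr14:62143023-62143322 (minus strand). Capitals mark GCGTG, the core of the site bound by the aryl hydrocarbon receptor, or its reverse complement.
Slc16a11: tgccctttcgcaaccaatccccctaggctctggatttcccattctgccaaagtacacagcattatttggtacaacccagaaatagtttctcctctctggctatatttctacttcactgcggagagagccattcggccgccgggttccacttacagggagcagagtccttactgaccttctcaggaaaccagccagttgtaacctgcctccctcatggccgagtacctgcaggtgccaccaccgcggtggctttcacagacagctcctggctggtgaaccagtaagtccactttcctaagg
Slc16a1: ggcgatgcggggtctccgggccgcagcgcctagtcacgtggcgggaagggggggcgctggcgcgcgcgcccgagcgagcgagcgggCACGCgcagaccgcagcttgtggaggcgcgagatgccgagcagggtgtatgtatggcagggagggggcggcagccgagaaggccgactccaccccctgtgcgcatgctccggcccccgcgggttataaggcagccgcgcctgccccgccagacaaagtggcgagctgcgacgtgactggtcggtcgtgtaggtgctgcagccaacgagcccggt
Slc34a2: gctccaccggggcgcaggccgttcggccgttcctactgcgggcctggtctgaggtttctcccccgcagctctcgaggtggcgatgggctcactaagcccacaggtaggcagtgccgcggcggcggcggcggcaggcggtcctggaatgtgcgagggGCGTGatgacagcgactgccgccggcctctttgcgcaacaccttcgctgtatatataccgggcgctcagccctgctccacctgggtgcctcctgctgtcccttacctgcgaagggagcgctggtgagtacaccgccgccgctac
The Slc16a11 stretch held no GCGTG on either strand. The Slc16a1 stretch held it once, 164 bases before the start on the opposite strand, and the Slc34a2 stretch once, 94 bases before the start. Promoters were found for 6 of the 7 carriers, and 3 of these held the core (the third was Slc16a10), beside 29.7% of all 33469 promoters of this length. Both strands were also searched for TGACNNNGC, the antioxidant response element, which 1 of the 6 held (Slc16a1) and 12.1% of all promoters, and for AGGTCA, a nuclear receptor half-site, which 3 of the 6 held, Slc16a11 among them, and 16.2% of all. The matches do not overlap one another in the 3 stretches shown, and a match or its lack is a description of letters and not of binding.

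Slc16a1 encodes MCT1, the widely expressed carrier of lactate, pyruvate and ketone bodies. Its log2 ratios were -0.17, 0.19, 0.34 and 0.37 in M, against 0.71, 0.39, 0.51 and 0.54 in C. All M arrays lay below all C arrays, with M 4 and C 2 close to each other. The 0.5M arrays read 0.41, -0.05, 0.12 and -0.04, with 3 of 4 below every C array, and the AhR arrays 0.22, 0.49, 0.37 and 0.46, with 2 of 4 below. Along the doses the mean was 0.54 ± 0.13 in C, 0.11 ± 0.21 in 0.5M and 0.18 ± 0.25 in M (SD, n = 4 arrays each), so the lower dose was not above the higher one. The AhR mean was 0.38 ± 0.12.

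The M against C difference of Slc16a1 was -0.35 ± 0.13 (21.8% lower), a description, as M chose the set. The tested difference of 0.5M against C was -0.42 ± 0.13 (25.5% lower, 95% interval -0.69 to -0.16) and missed the threshold (limma adjusted p = 0.601). AhR against C gave -0.15 ± 0.13 (adjusted p = 1) and 0.5M against AhR -0.27 ± 0.13 (adjusted p = 0.541). In M against C the difference was -0.54 within slide 1 and -0.17 within slide 2. M 1, the lowest array, is the array with the highest pancreas markers, and their part in the value was not tested.

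**Figure D3:**
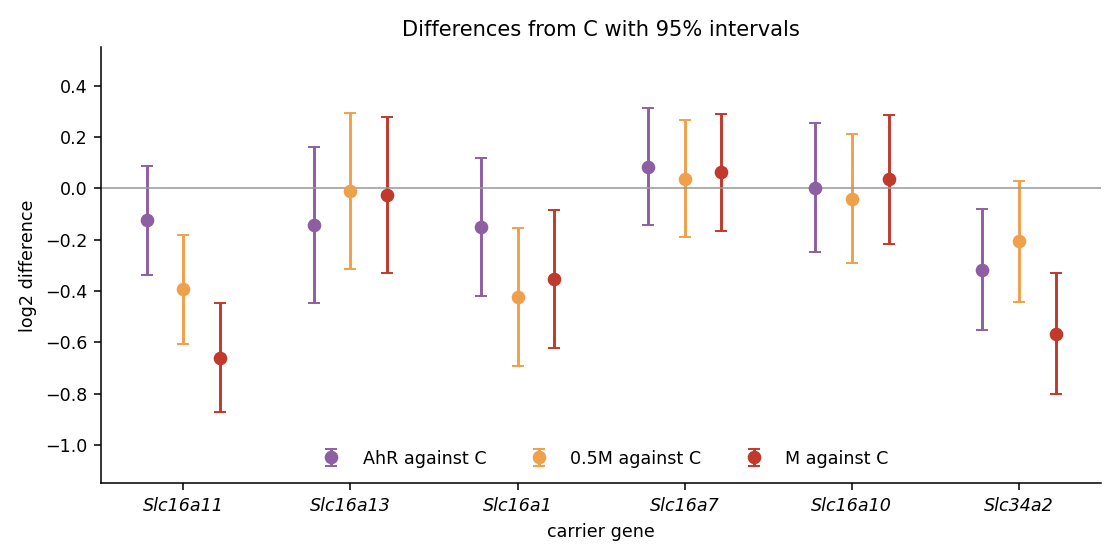
Log2 difference from C (vertical axis) of each carrier in AhR, 0.5M and M, with 95% intervals from the model over all 16 arrays. Slc16a11 and Slc34a2 chose the set by their M values. Slc16a1 lies at -0.42 in 0.5M and -0.35 in M, and every interval of Slc16a13, Slc16a7 and Slc16a10 includes 0.

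Slc16a7 encodes MCT2, which has a higher affinity for pyruvate and lactate than MCT1 and takes them into cells. Its probe was printed 10 times on each array, against 2 spots for the other carriers. The log2 ratios were -0.07, -0.39, -0.28 and -0.43 in M, against -0.53, -0.40, -0.36 and -0.13 in C, and the groups overlapped. The means were -0.27 ± 0.12 in AhR, -0.35 ± 0.17 in C, -0.32 ± 0.15 in 0.5M and -0.29 ± 0.16 in M (SD, n = 4 arrays each). The differences from C were 0.06 ± 0.11 in M, 0.04 ± 0.11 in 0.5M (adjusted p = 0.963) and 0.08 ± 0.11 in AhR (adjusted p = 1). The intervals of the tested differences, -0.19 to 0.27 for 0.5M and -0.14 to 0.31 for AhR, bound what these arrays allow. The median SD between spots of this probe on an array was 0.14, and the pooled SD between arrays of a group was 0.15. These are unlike measures, as the first is of single spots and an array value is a mean over up to 10 spots.

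Slc16a10 encodes a carrier of aromatic amino acids and thyroid hormone. It was the dimmest of the Slc16 probes, with a liver signal well above background on 2 M arrays, 3 0.5M arrays, 3 AhR arrays and 3 C arrays. Its log2 ratios were -0.10, -0.24, 0.15 and -0.12 in M, against 0.15, -0.37, -0.10 and -0.13 in C. The differences from C were 0.03 ± 0.12 in M, -0.04 ± 0.12 in 0.5M (95% interval -0.29 to 0.21) and 0.00 ± 0.12 in AhR (-0.25 to 0.25), and no comparison passed. The net liver signal of this probe was 2.0 to 70.8 scanner units, so at this brightness the ratios are drawn towards each other and a change could be missed. Slc16a12, a creatine carrier, had no matched probe. Of 4 tested genes of creatine handling, none passed in any comparison, beside at most 0.319% of all transcripts. Slc6a6, the taurine carrier, differed by -0.52 ± 0.28 in M against C (adjusted p = 0.557), and Slc6a8, the sodium-coupled creatine carrier, by 0.37 ± 0.18 (adjusted p = 0.503). Slc6a8 read 0.92 on M 2 and 0.71 on 0.5M 4, the arrays with muscle transcripts, and -0.19 to 0.19 on the others. The part of muscle in its difference was not tested.

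Slc34a2 was lower in M than in any other group in mean. Its log2 ratios were -0.09, -0.24, -0.16 and -0.27 in M, against 0.12, 0.27, 0.57 and 0.55 in C. All 4 M arrays lay below all 4 C arrays, and also below all 4 0.5M arrays, which read 0.08, 0.33, 0.06 and 0.22. The AhR arrays read 0.03, -0.15, 0.00 and 0.37 and overlapped with M, as AhR 2 lay below M 1. Along the doses the mean was 0.38 ± 0.22 in C, 0.17 ± 0.12 in 0.5M and -0.19 ± 0.08 in M (SD, n = 4 arrays each). The step from C to 0.5M was seen on slide 2 alone: 0.5M against C was 0.01 within slide 1 and -0.42 within slide 2. The AhR mean was 0.06 ± 0.22.

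The M against C difference of Slc34a2, which chose the gene, was -0.57 ± 0.11 (SE, n = 4 arrays per group), a level 32.5% lower. Within slide 1 it was -0.36 and within slide 2 -0.77. Of the descriptive differences, M against 0.5M was -0.36 ± 0.11, M against AhR -0.25 ± 0.11, 0.5M against C -0.21 ± 0.11 and AhR against C -0.32 ± 0.11, the last with 3 of 4 AhR arrays below every C array. The tested difference of 0.5M against AhR was 0.11 ± 0.11 (95% interval -0.13 to 0.35, limma adjusted p = 0.789). Its SE also draws on the spread of the M and C arrays, which chose the gene. Bile duct markers mark the cells of the liver best known for this carrier. Over 4 of 7 markers tested, they differed by a median of 0.01 in M against C, with none past the threshold. Their mean log2 ratio was -0.09 to 0.06 in M and -0.04 to 0.09 in C, and no array showed Cftr well above background. The tested markers were often dim: Krt19 was well above background on 13 arrays, Epcam on 12, Krt7 on 9 and Spp1 on 5. At this brightness ratios are drawn towards each other, so a change in these markers could be missed. In whole liver RNA, fewer cells of a type and less RNA per cell cannot be told apart. Of the lung type 2 markers, Sftpc, Sftpb, Sftpa1 and Lamp3 were not well above background on any array, while Napsa was on all 16 and differed by -0.00 in M against C.

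The Slc34a2 signal was close to background. Its Cy5 intensity was 65.5, 79.0, 123 and 100 in M 1 to M 4, against 84.5, 116.5, 228 and 161 in C 1 to C 4, over a background of 61.0 to 68.3 on the 16 arrays. The scanner software marked the probe well above background on 2 of 4 M arrays, 4 of 4 0.5M arrays, 3 of 4 AhR arrays and 4 of 4 C arrays. For such dim probes the size of a difference depends on the background correction. Without the offset of 50 that was added to both channels, the M against C difference was -1.01 ± 0.18, and with the scanner software's own ratio it was -1.25 ± 0.20. The choosing value was also near its threshold: the adjusted p lay between 0.0521 and 0.182 when any one of M 2, M 3, M 4, 0.5M 1, AhR 1, AhR 3, C 2, C 3 or C 4 was left out.

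**Figure D4:**
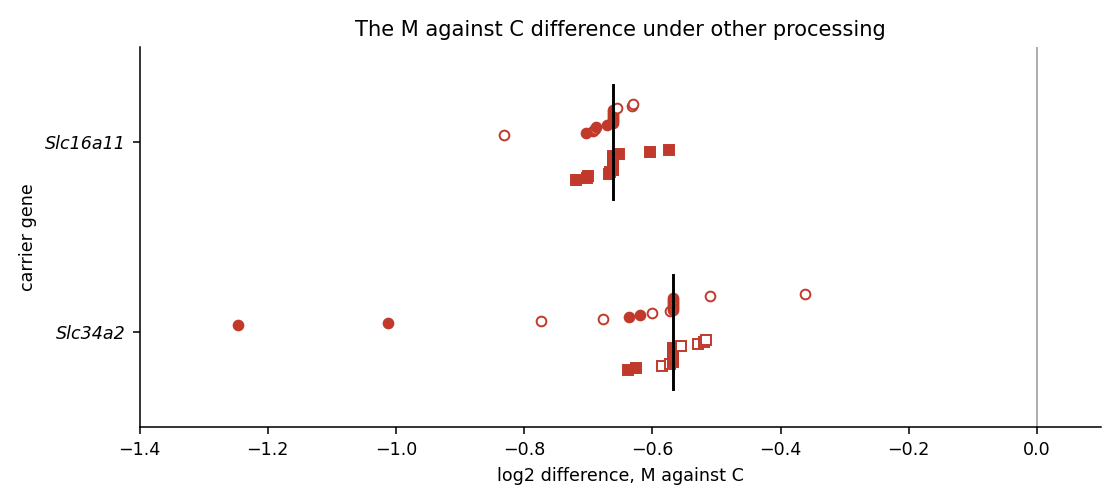
Log2 difference of M against C (horizontal axis) for Slc16a11 and Slc34a2 under 33 other settings, with the reported value as a black line. Squares leave out 1 array, circles change another setting, and filled symbols have an adjusted p under 0.05. Every value lies below 0, with a range of -0.83 to -0.57 for Slc16a11 and -1.25 to -0.36 for Slc34a2.

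Across the set, the carriers with a probe were counted in each comparison beside all transcripts. Groups that did not overlap were found for 3 carriers in M against C (Slc16a11, Slc16a1 and Slc34a2, all lower in M), a comparison the choice used and in which 4.18% of transcripts did not overlap. In 0.5M against C it was Slc16a11 alone (background 3.04%) and in AhR against C none of the 6 (2.0%). In M against 0.5M it was Slc34a2 (2.80%), in M against AhR Slc16a11 (4.02%) and in 0.5M against AhR Slc16a11. Of the carriers that could be tested, none of 4 passed in 0.5M against C, where 0.0152% of transcripts did, in AhR against C (0.00761%), in M against 0.5M (0.0152%) or in M against AhR (0.266%), and none of 6 in 0.5M against AhR. At an unadjusted p under 0.05, 858 transcripts lay in 0.5M against C, 495 in AhR against C, 888 in M against 0.5M, 1297 in M against AhR and 1189 in 0.5M against AhR.

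Over the 16 arrays with slide means removed, Slc16a11 correlated with Slc34a2 at 0.67 and with Slc16a1 at 0.64, in part by the choice of both Slc16a11 and Slc34a2 on M. Slc16a1 and Slc34a2 correlated at 0.19, and Slc16a1 and Slc16a13 at -0.45. The named transcripts most like Slc16a11 were Mrps2 (0.83), a protein of the small mitochondrial ribosome subunit, Cabin1 (0.83), Irf2bp1 (0.81), Anxa13 (0.81) and Prpf3 (0.80). Those most like Slc34a2 were Anxa13 (0.81), which encodes an annexin, Stx7 (0.81), Atg16l1 (0.79), Ppp1r14a (0.78) and Kctd5 (0.77). The points of these correlations share the slides, the groups and the reference RNA.

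Genes of the same pathways were read from lists, and none of their members passed the threshold in any of the 6 comparisons. Of all transcripts, 0.319% passed in M against C and 0.266% or less in the others, so no call is the usual outcome for lists of this size. Of the other Slc16 carriers and the partner proteins of the family, 7 of 11 were tested, and in M against C 3 were higher and 4 lower (median -0.00). Bsg, which encodes basigin, differed by -0.15 ± 0.13 in M against C and by -0.32 ± 0.13 in 0.5M against AhR (adjusted p = 0.494). Slc16a3, which encodes the lactate carrier MCT4 of glycolytic muscle, read 0.65 on M 2 and 1.46 on 0.5M 4, the arrays with muscle transcripts, and -0.19 to 0.30 on the other 14. Slc16a6, a carrier tied to ketone export in zebrafish liver, differed by -0.32 ± 0.12 in 0.5M against C (adjusted p = 0.71).

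Of the genes of lactate, pyruvate and ketone handling, 10 of 12 were tested, and in M against C 3 were higher and 7 lower (median -0.17). Pc, pyruvate carboxylase, differed by -0.38 ± 0.13 (adjusted p = 0.27), and Ldha, a lactate dehydrogenase gene, by -0.25 ± 0.12. Of the thyroid hormone and aromatic amino acid genes all 14 were tested, 6 higher and 8 lower in M against C (median -0.02). Thrsp, a thyroid-responsive gene of fat synthesis, differed by 0.70 ± 0.27 (adjusted p = 0.364), Slco1b2, an uptake carrier, by 0.44 ± 0.12 (adjusted p = 0.19) and Dio1, the deiodinase of liver, by -0.35 ± 0.14. Dio1 also gave the largest difference of this list in M against AhR (-0.43 ± 0.14, adjusted p = 0.305).

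Of the phosphate carriers and their partners, 9 of 12 were tested, and in M against C 4 were higher and 5 lower (median -0.02). Slc17a1, a carrier first described as a sodium phosphate transporter, differed by 0.39 ± 0.11 in M (adjusted p = 0.178) and 0.39 ± 0.11 in 0.5M (adjusted p = 0.578). The housekeeping phosphate importers Slc20a1 and Slc20a2 differed by 0.01 ± 0.13 and -0.10 ± 0.10 in M against C, and the exporter Xpr1 by 0.06 ± 0.08. Nherf1, a scaffold protein that binds phosphate carriers, had the largest difference of the list in 0.5M against AhR (-0.28 ± 0.11, adjusted p = 0.493). Slc34a1 and Slc34a3, the kidney relatives of Slc34a2, did not pass the filter on dim probes.

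**Figure D5:**
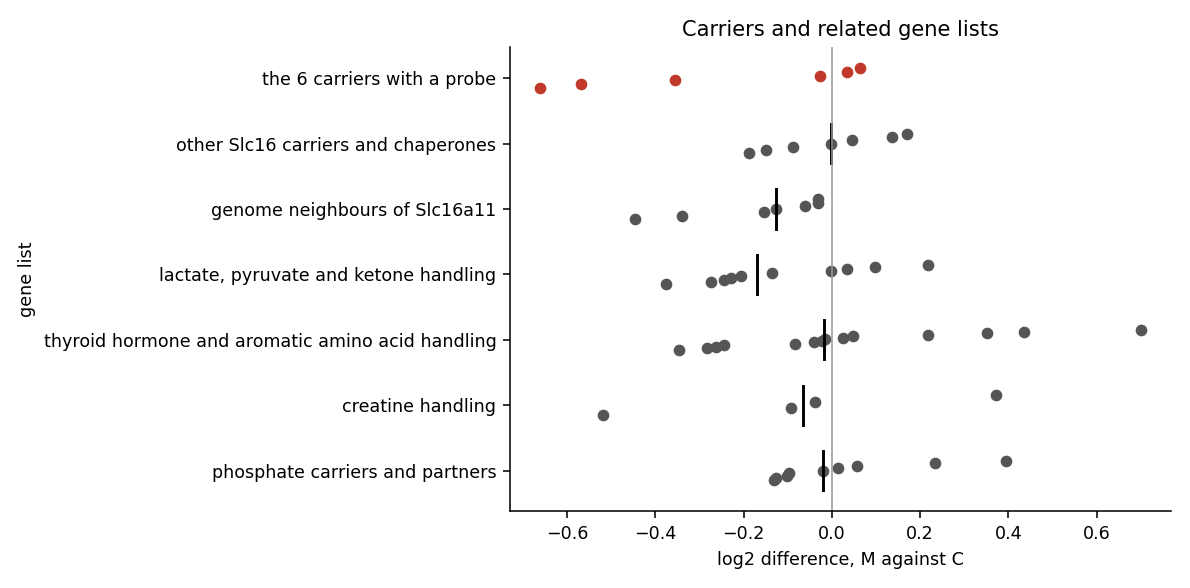
Log2 difference of M against C (horizontal axis) for the 6 carriers and for the tested genes of 6 lists, with 1 point per gene and a black line at the median of each list. Slc16a11 at -0.66 and Slc34a2 at -0.57 lie at the low end, and the 7 tested neighbours of Slc16a11 all lie below 0 without passing the threshold. Of all transcripts, 50.6% were lower in M than in C.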

How the data were processed

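Liver RNA of 16 pools was measured on 2-colour Agilent arrays. Per the file headers, Agilent Feature Extraction 10.7.3.1 made the deposited scan files, whose 62976 spots carry a median signal and a median background as scanner intensity in both channels; their LogRatio column is on the log10 scale, and the deposited quality marks of spots, 0 or 1, are of the unit other. A further deposited table holds log2 values. They were set against Cy5 to Cy3 ratios of the scans without background subtraction. The correlation was 0.977 to 0.998 with the own array and at most 0.878 with another (column medians -0.01 to 0.01). Ratios with background subtraction were not compared, so how background was treated in the table is not settled. How the table was filtered is not given in the sources used here.

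Intensities were corrected with normexp (offset 50, which draws dim ratios together) and loess within arrays in limma 3.58.1 (R 4.3.3, data.table at version 1.17.8), with control spots at weight 0. The plan named mean signals; the files hold medians, which were used. Spots marked non-uniform or as population outliers were left out, and spots of a probe were averaged. The filter kept probes that at least 4 of 16 arrays showed well above background in Cy5, and the brightest probe stood for a gene, leaving 13146 transcripts, 8562 with a symbol. A model with group means and a slide term gave 6 comparisons (lmFit, contrasts.fit, eBayes; two-sided), adjusted by Benjamini-Hochberg over 13146 transcripts with a threshold of 0.05. Precision is set by the number of arrays (median standard error 0.104). On simulated data for M against C, with 13146 transcripts, 97 of 100 changed by a log2 of 1 and 99 of 100 changed by 2 were recovered, with 7 false calls. Both sizes exceed every carrier difference of the main model, of which the largest was -0.66. Recovery of smaller changes was not simulated, so a carrier that missed the threshold may still differ. Alternatives changed the background correction, normalization, filter, slide term and arrays used. Promoters and gene names are RefSeq's (GRCr8); gene positions in that build served for the neighbours of Slc16a11, and the coordinates printed are those of the promoters.

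The carriers, gene lists, tests and alternatives were chosen with earlier results of these data known. Named genes are all carriers, the 5 named transcripts with the highest correlation to Slc16a11 and to Slc34a2, of each list the member with the largest absolute difference in a comparison, Cyp1a1 and Cyp2b2. Slc16a3, Ldha, Acadvl, Asgr1, Asgr2, Xpr1, Slc34a1 and Slc34a3 were named after their values were seen. Some genes of the lists are not reported here.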

Additional observations from a re-analysis of the deposited data

Results flagged for a closer look

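The log2 ratio of Slc16a7 in AhR 3 was -0.44, while the other 3 AhR arrays read -0.23 to -0.20. The gap to the nearest array exceeded Dixon's 95% critical value for 4 samples. Of 24 gene and group combinations checked, this was the 1 that exceeded it, and chance does so in about 1 in 20.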

How the results depend on the processing

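Of 1188 carrier differences recomputed under 33 other settings, 1163 moved by less than the spread between arrays or stayed on their side of the threshold and 25 moved by more; none of those past the threshold changed sign. The 2 carriers lower in M than in C at an adjusted p under 0.05 became 0 when arrays were centred on the median and not by loess, with either slide by itself, and without M 1, M 2, AhR 2, C 2 and 0.5M 4. They became 1, Slc16a11, without background subtraction, without a filter on dim probes, without the slide term, with only the 2 groups compared and without M 2 and 0.5M 4, and 1, Slc34a2, with the scanner software's own ratio. With a replicate block in place of the slide, 1 remained past the threshold (Slc16a11). Same-numbered arrays correlated between -0.23 and 0.46, above 0.1 in 16 of 24 pairs. Arrays of unlike number were not set beside these, so the correlations cannot decide whether the numbers mark pairs. The main model did not treat the numbers as pairs beyond the slide. Leaving out each array in turn gave 1 to 2. The cause of these changes was not tested, except that slides alone and 5 arrays fewer leave fewer samples. Across the 33 settings Slc16a11 was past the threshold in 28 and Slc34a2 in 14. Many settings cannot change the M against C difference itself. Among them are a further normalization between arrays, other filters on dim probes, no slide term and leaving out a 0.5M or AhR array. These counts describe the choosing comparison and are not a test. In the other 5 comparisons 0 of the tested carriers passed under all 33 settings; Slc16a11 in M against AhR, a description, had an adjusted p under 0.05 in 18. Over all transcripts, M against C gave 1 to 66 calls, 0.5M against C 0 to 3, AhR against C 0 to 1, M against 0.5M 0 to 7, M against AhR 0 to 64 and 0.5M against AhR 0 to 5; array weights gave the highest counts in M against C and in M against AhR. Normexp without an offset was added after seeing the data. Signal over background limits Slc34a2 and Slc16a10.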

Other observations

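The spread of spots within an array and that between arrays are both given, but they are unlike measures. The first is of single spots, while an array value is a mean of its spots. The second also holds the difference between slides. For Slc34a2 the median SD between the 2 spots on an array was 0.14 and the pooled SD between arrays of a group 0.17, and for Slc16a11 the values were 0.13 and 0.17. The largest spot SD of Slc34a2 on an array was 0.32. Between slides, the mean log2 ratio on slide 2 was above that on slide 1 by 0.18 for Slc16a11 and by 0.12 for Slc34a2.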
